A study of Mus musculus with 2 samples.

Results

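A set of 10 uptake receptors of phagocytes was followed across the leukocytes of pancreatic islets. They are Cd36, Msr1, Olr1, Scarb1, Marco, Mrc1, Cd163, Mertk, Axl and Timd4, chosen by symbol, and all 10 are among the 32285 genes counted. The cells came from the islets of female NOD mice aged 12 weeks, a strain that develops autoimmune diabetes. One group was WT NOD and the other carried the label NOD.Cxcl16-/-, with 1 library each and the number of mice behind a library not given in the sources used here. Islets were picked by hand and dispersed without enzymes, and live CD45+ CD31- cells (leukocytes without endothelial cells) were sorted before droplet-based sequencing of transcript 3′ ends. Neither the deleted part of Cxcl16 nor the make of the mutant strain is given in the sources used here.

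Scavenger receptors bind modified lipoproteins, polyanions and debris, and carry them into the cell. CD36, MSR1 (scavenger receptor A), OLR1 (LOX-1), SCARB1 (SR-BI) and MARCO belong to this group, MRC1 is the mannose receptor, and CD163 takes up haemoglobin bound to haptoglobin. MERTK, AXL and TIMD4 (TIM-4) serve the removal of dying cells: TIMD4 binds the exposed lipid phosphatidylserine directly, while MERTK and AXL are kinases that bind it through the bridging proteins GAS6 and, for MERTK, protein S. CXCL16 is both the ligand of CXCR6, a chemokine receptor on T cells, and, as SR-PSOX, a scavenger receptor for oxidised lipoprotein. That second role is why these receptors are set beside it.

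There were 13859 WT NOD barcodes with 93553185 UMIs (counted molecules) and 10554 barcodes with 98681133 UMIs in the library labelled NOD.Cxcl16-/-. After filtering, 10716 and 9323 cells were kept, at medians of 3851 and 4887 UMIs. The 2 libraries share 45 barcode sequences. Cxcl16 itself was at 103 CPM (9668 UMIs) over all WT NOD barcodes. Over all barcodes of the library labelled NOD.Cxcl16-/- it was at 102 CPM (10062 UMIs), so its transcript was not missing there. These totals pool all cell types, and the myeloid gates described below held 411 of 10716 and 653 of 9323 kept cells. Cxcl16 was lower in the labelled library in each myeloid gate except plasmacytoid dendritic cells (53.6 CPM in WT NOD and 117 CPM). In macrophages it was at 888 and 520 CPM. A 3′ tag outside a deleted part would check nothing, so the label could not be checked. Every direction given is a direction between the library labelled NOD.Cxcl16-/- and the WT NOD library. With 1 library per group no difference could be tested. All intervals are at the 95% level and cover counting error only.

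Cells were assigned to gates by how many of 8 marker genes of each cell type they held, and none of the 10 receptors is among those markers. The macrophage gate held 72 WT NOD cells and 172 cells of the library labelled NOD.Cxcl16-/-, with median depths of 11101 and 10859 UMIs. Its leading genes were Ccl8, C1qb, C1qa, C1qc and Ms4a7, and 5 of its 10 leading genes were its own markers. Dendritic cells (DCs) were split into cDC1 (94 and 146 cells), cDC2 (68 and 136), migratory DC (87 and 106) and plasmacytoid DC (53 and 43) gates, with 6, 2, 6 and 4 of their own markers among their 10 leading genes. The classical monocyte gate, led by Fn1, Hp and F13a1, held only 8 and 12 cells. A gate for non-classical monocytes (29 and 38 cells) had 0 of its own markers among its 10 leading genes, so its cells were left unnamed and their levels are not described below. Of the 217 and 549 cells that met the macrophage panel, 145 (66.8%) and 377 (68.7%) were left out because they also held lymphocyte or plasma cell markers. The myeloid gates, the unnamed one included, held between 17.3% (Scarb1) and 46.5% (Mertk) of the UMIs of kept WT NOD cells for the 8 receptors other than Cd163 and Marco, and between 21.7% (Cd36) and 45.3% (Timd4) in the library labelled NOD.Cxcl16-/-. Barcodes left out as doublets held between 40.7% (Timd4) and 64.3% (Olr1) of the UMIs of these 8 over all WT NOD barcodes. In the other library they held between 25.1% (Msr1) and 39.9% (Mertk).

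Each receptor had its own distribution over the gates. Msr1, Mrc1, Mertk and Axl were macrophage or monocyte transcripts, Timd4 was above its macrophage level in the conventional DC gates, Cd36 was highest in cDC1 cells, and Cd163 and Marco were barely seen. Levels are the UMIs of a gene scaled to the total UMIs of the gate (CPM) and are compared between gates for the same gene, not between genes.

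**Figure D1:**
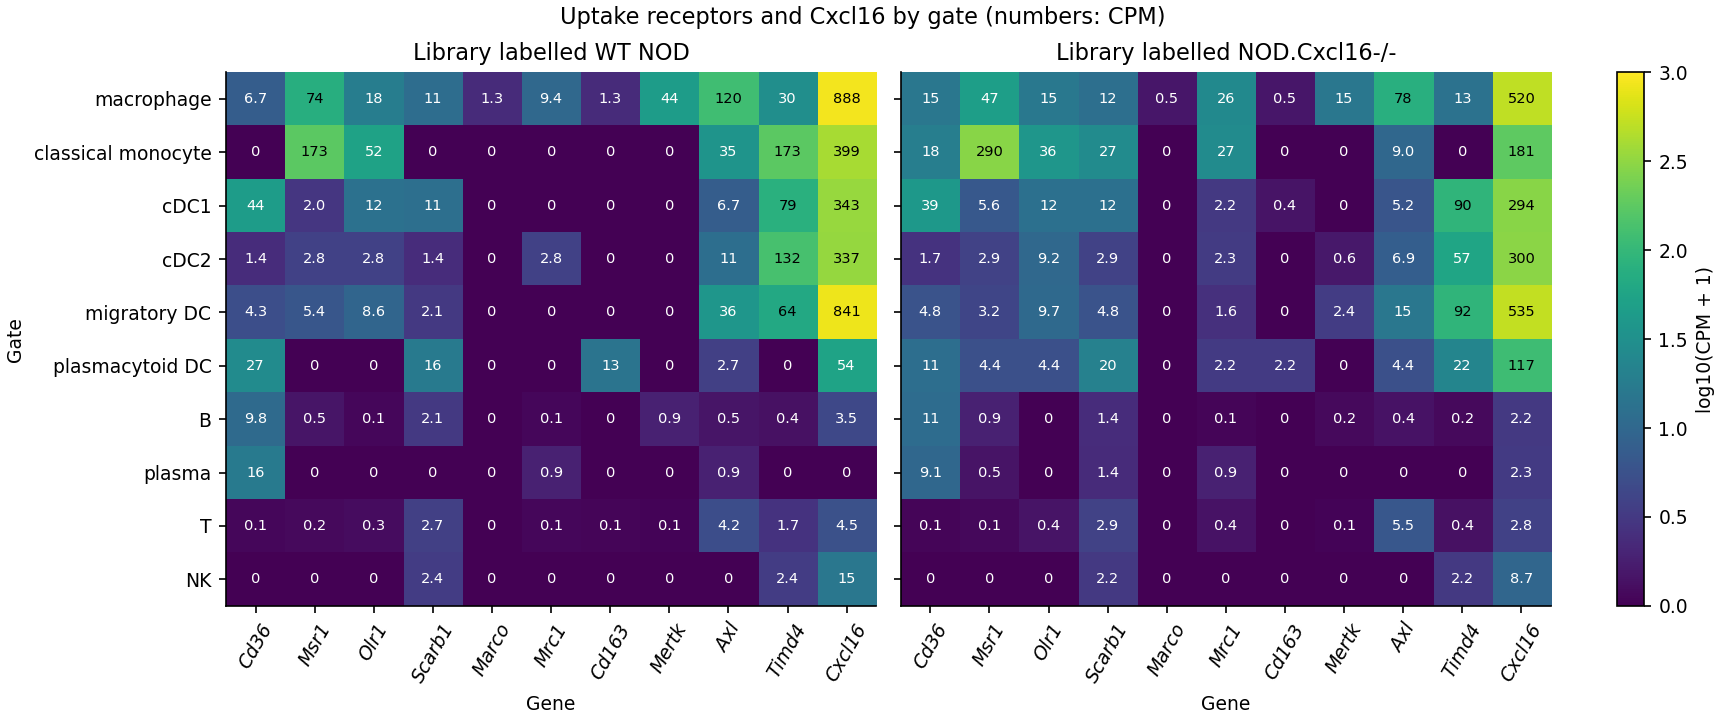
Level of each receptor and of Cxcl16 (columns) in each gate (rows), 1 panel per library; colour is log10(CPM + 1) and the printed number is the CPM. Msr1 and Axl stand out in the macrophage row (74.1 and 120 CPM in the WT NOD panel), Timd4 in the cDC1, cDC2 and migratory DC rows, and Cd36 in the cDC1 row; the monocyte row rests on 8 and 12 cells.

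Among the lipid scavengers, Msr1 was highest in classical monocytes and macrophages. The gene lies on chromosome 8 at 39581685 to 39642673 (GRCm38, minus strand). WT NOD macrophage-gated cells held 55 UMIs, or 74.1 CPM (55.8 to 96.4), and those of the library labelled NOD.Cxcl16-/- held 94 UMIs, or 47.3 CPM (38.2 to 57.9). In the classical monocyte gate it was at 173 CPM (83.2 to 319) from 10 UMIs and at 290 CPM (198 to 409) from 32 UMIs, of which 11 came from 1 cell. The monocyte interval lay above the macrophage interval only in the library labelled NOD.Cxcl16-/-. Msr1 was itself among the 10 leading genes of the monocyte gate. In the 4 DC gates Msr1 lay between 0 and 5.62 CPM. In T cells, which should lack it, it was at 0.18 and 0.14 CPM. An Msr1 UMI was seen in 40.3% of the WT NOD macrophage-gated cells and in 28.5% of those of the other library, against 0.090% and 0.088% of T-gated cells at median depths of 3998 and 4559 UMIs. After each cell was thinned to 2000 UMIs the macrophage shares were 16.7% (8.29 to 28.5) and 8.23% (4.45 to 13.7).

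Cd36 (chromosome 5, 17781690 to 17888801, minus strand) was highest in cDC1 cells in both libraries, at 44.1 CPM (66 UMIs) and 38.9 CPM (90 UMIs), where 33.0% and 31.5% of cells had a UMI. The macrophage gate had 6.73 CPM (2.19 to 15.7; 5 UMIs in 4 cells) and 14.6 CPM (9.77 to 21.0; 29 UMIs in 23 cells). On the log2 scale with 1 CPM added, the cDC1 level was above the macrophage level by 2.54 (WT NOD) and by 1.36. Plasmacytoid DCs had 26.8 CPM (12.8 to 49.3; 10 UMIs) and 11.0 CPM (5 UMIs), so in the WT NOD library their interval overlaps that of the cDC1 cells. Cd36 was also present outside the myeloid cells. It was at 9.83 CPM (7.78 to 12.2) and 10.6 CPM (8.72 to 12.8) in B cells, against 0.14 and 0.11 CPM in T cells of similar depth (B gate medians 4497 and 4547 UMIs), so the B cell level was above that of the T cells by more than counting error. Plasma cells had 16.4 and 9.10 CPM, although 15 of the 19 WT NOD UMIs there came from 1 cell. Among clusters of all cells, a B cell cluster led by Bhlhe41 and Fcrl5 had 15.7 and 15.4 CPM.

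Olr1 (chromosome 6, 129485244 to 129507165, minus strand) was spread over macrophages and DCs. The macrophage gate had 17.5 CPM (13 UMIs) and 15.1 CPM (30 UMIs), the cDC1 gate 12.0 and 11.7 CPM, the migratory DC gate 8.56 and 9.67 CPM, and the cDC2 gate 2.81 and 9.19 CPM. Neighbours in this order did not differ beyond their counting intervals. In the macrophage gate of the library labelled NOD.Cxcl16-/-, 12 of the 30 UMIs were in 1 cell. The classical monocyte gate held 3 and 4 UMIs (52.0 and 36.2 CPM). In T cells Olr1 was at 0.25 and 0.43 CPM.

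Scarb1 (chromosome 5, 125277087 to 125341094, minus strand), a receptor for high-density lipoprotein, had like levels in macrophages, cDC1 cells and plasmacytoid DCs. It was at 10.8 and 11.6 CPM in macrophages, 11.3 and 11.7 CPM in cDC1 cells and 16.1 and 19.8 CPM in plasmacytoid DCs, the last from 6 and 9 UMIs. The cDC2 and migratory DC gates had between 1.40 and 4.84 CPM, from at most 6 UMIs each. T cells held 2.68 and 2.93 CPM, which came to 36.1% and 25.8% of the Scarb1 UMIs of kept cells. After thinning, 5.00% (1.04 to 13.9) and 0% (0 to 2.31) of macrophage-gated cells had a Scarb1 UMI, against 0.57% and 0.44% of T-gated cells, so the thinned macrophage values rest on 3 and 0 cells.

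Marco (chromosome 1, 120474538 to 120505024, minus strand) had 2 UMIs over all WT NOD barcodes and 10 over all barcodes of the other library, with 1 UMI in each macrophage gate. Cd163 (chromosome 6, 124304656 to 124330527, plus strand) had 18 and 11 UMIs over all barcodes. Plasmacytoid DCs held 6 of its 12 UMIs over all gates, 5 of them in 4 WT NOD cells (13.4 CPM, 4.35 to 31.3) and 1 in the other library, and each macrophage gate held 1. Both genes mark subsets of tissue macrophages in other organs, and at this depth neither could be compared between the libraries.

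Mrc1 (chromosome 2, 14229392 to 14332057, plus strand), the mannose receptor of tissue macrophages and some DCs, was a macrophage transcript here at a low level. The WT NOD macrophage gate had 7 UMIs in 7 different cells, or 9.43 CPM (3.79 to 19.4), and the other had 51 UMIs in 29 cells with at most 4 in a cell, or 25.7 CPM (19.1 to 33.7). The DC gates held at most 2.81 CPM in either library, and the classical monocyte gate 0 and 3 UMIs. T cells held 0.14 and 0.40 CPM.

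Mertk (chromosome 2, 128698956 to 128802894, plus strand) was found almost only in the macrophage gate among the myeloid gates, at 44.4 CPM (33 UMIs) and 14.6 CPM (29 UMIs). No Mertk UMI was found in the WT NOD cDC1, cDC2, migratory DC or plasmacytoid DC gates, and 4 in all were found in those gates of the other library. The 33 WT NOD UMIs came from only 9 of 72 cells, with 14 of them in 1 cell and 23 in 3 cells. The 29 UMIs of the other library came from 23 of 172 cells, with at most 3 in a cell. The share of cells with a Mertk UMI was therefore 12.5% and 13.4%, against 0.036% and 0.044% of T cells.

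Axl (chromosome 7, 25757273 to 25788705, minus strand) was detected in a like share of macrophages in the 2 libraries, in 37 of 72 (51.4%) and 87 of 172 (50.6%). Its level was 120 CPM (96.3 to 148) from 89 UMIs and 78.0 CPM (66.2 to 91.3) from 155 UMIs. Among the DCs it was highest in the migratory gate, at 36.4 CPM (34 UMIs) and 14.5 CPM (18 UMIs), and the cDC1 and cDC2 gates lay between 5.19 and 11.2 CPM. In the library labelled NOD.Cxcl16-/- the migratory DC interval (8.60 to 22.9) overlaps that of the cDC2 cells (3.56 to 12.0). Axl was also found in T cells, at 4.15 CPM (3.43 to 4.98) and 5.54 CPM (4.70 to 6.49), against 0.50 and 0.39 CPM in B cells. Within the T cells it was unevenly placed: a cluster led by Foxp3 and Ikzf2, genes of regulatory T cells, had 14.8 and 13.1 CPM, a cluster led by Tnfsf8 and Pdzrn3 had 14.4 and 13.0 CPM, and a cluster led by Il21 and Il10 had 14.7 and 11.9 CPM. T cells held 28.7% and 19.1% of the Axl UMIs of kept cells because of their number.

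Timd4 (chromosome 11, 46810800 to 46844332, plus strand) is best known on resident macrophages, but in these islets its level was higher in conventional and migratory DCs than in macrophages. The cDC2 gate had 132 CPM (107 to 161; 94 UMIs) and 56.9 CPM (46.2 to 69.3; 99 UMIs), the cDC1 gate 79.4 CPM (65.8 to 95) and 89.9 CPM (78.1 to 103), and the migratory DC gate 64.2 CPM (49.0 to 82.7) and 91.9 CPM (75.8 to 110). The macrophage gate had 29.6 CPM (18.6 to 44.9; 22 UMIs in 8 cells) and 12.6 CPM (8.14 to 18.6; 25 UMIs in 19 cells), and 9 of the 22 WT NOD UMIs were in 1 cell. In each library the Poisson intervals of these 3 DC gates lay above that of the macrophage gate. The order among the DC gates was not shared: cDC2 cells were highest among WT NOD cells and lowest of the 3 gates in the other library. At full depth a Timd4 UMI was found in 27.9% and 25.7% of cDC2 cells, with a mean of 4.95 and 2.83 UMIs in those cells, and 8 of 19 positive WT NOD cells against 4 of 35 in the other library held 5 or more. After thinning, 18.5% (9.92 to 30) and 5.22% (2.13 to 10.5) of cDC2 cells had a UMI, and these intervals touch. The 8 WT NOD classical monocytes had 10 Timd4 UMIs, 173 CPM (83.2 to 319), with 7 of the 10 in 1 cell. That interval overlaps those of the WT NOD cDC1 and cDC2 cells. The monocytes of the other library had 0. T cells held 1.72 and 0.36 CPM. In the plasmacytoid DC gate Timd4 had 0 WT NOD UMIs and 10 UMIs in 3 cells of the other library, where the summed level of the 8 macrophage markers was also higher (48.2 and 748 CPM). The part of those macrophage transcripts in the Timd4 UMIs was not tested.

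**Figure D2:**
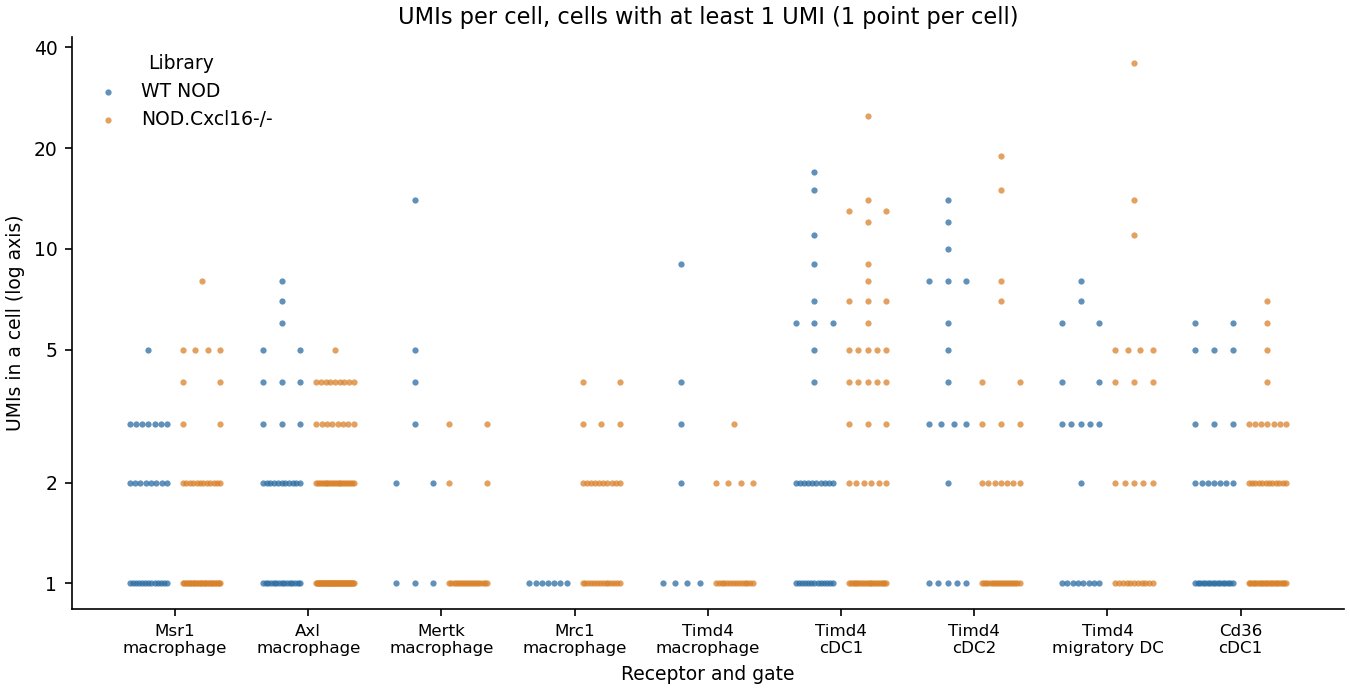
UMIs of a receptor in each cell that holds at least 1 (log axis), for 9 receptor and gate pairs and both libraries; 1 point is 1 cell. The single WT NOD macrophage with 14 Mertk UMIs and the single migratory DC with 36 Timd4 UMIs in the library labelled NOD.Cxcl16-/- stand clear of the other cells of their gates.

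The upstream sequences of 8 of the 10 receptors are in the RefSeq table for GRCm38.p6, and the 250 bases before each start were searched on both strands for 4 motifs of myeloid and interferon-linked factors. These were the interferon-stimulated response element (GAAA and GAAA with 2 bases between them), the composite site of an ETS factor with IRF4 or IRF8 (GGAA and GAAA with 2 bases between them), a PU.1 site (GAGGAAGT) and an AP-1 site (TGANTCA). The first 2 share their last bases but differ in their second base, so the same stretch of letters cannot match both. Timd4 and Olr1 are shown because they were the only 2 of the 8 with a match, a choice made after the search. The 250 bases before Timd4 (chr11:46810549-46810798, plus strand) hold a match to the composite site, and those before Olr1 (chr6:129507166-129507415, minus strand) a match to the AP-1 site, both in capitals.
Timd4: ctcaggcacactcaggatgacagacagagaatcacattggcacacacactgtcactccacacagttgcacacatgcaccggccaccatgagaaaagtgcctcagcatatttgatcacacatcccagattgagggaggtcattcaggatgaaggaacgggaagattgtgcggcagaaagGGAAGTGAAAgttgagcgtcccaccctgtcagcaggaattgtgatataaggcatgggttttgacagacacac
Olr1: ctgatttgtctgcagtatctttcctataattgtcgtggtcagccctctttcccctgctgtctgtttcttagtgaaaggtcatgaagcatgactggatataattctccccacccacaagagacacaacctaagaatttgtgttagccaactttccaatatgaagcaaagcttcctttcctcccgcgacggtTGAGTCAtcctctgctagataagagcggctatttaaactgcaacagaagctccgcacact
Of 32851 such windows in the table, 2.30% hold the composite letters, 6.75% the AP-1 letters, 2.98% the response element and 2.44% the PU.1 letters. The windows of Cd36, Marco, Mrc1, Cd163, Mertk and Axl hold none of the 4. That of Cd36 (chr5:17835897-17836146, minus strand) lies inside the span of the gene given above. It precedes an inner start, and the bases before the outer end of the span (17888801) were not searched. A match is a description of the letters and not a site.

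Between the libraries, the macrophage receptors did not move together. Of the 10, 8 reached 10 CPM as the mean of both libraries in the macrophage gate. Of these, 6 differed by 1.5-fold or more, 4 lower (Mertk, Timd4, Msr1 and Axl) and 2 higher (Mrc1 and Cd36) in the library labelled NOD.Cxcl16-/-, while Olr1 and Scarb1 stayed within 1.5-fold. Among all 7072 genes at this level, 18.6% passed 1.5-fold, 9.47% lower and 9.16% higher. The median log2 ratio was -0.41 over the 8 receptors and -0.02 over all genes. These receptors are low transcripts, so their counting intervals are wide, and the 18.6% over all genes was not matched to their level. The counting interval of the log2 ratio left out 0 for 5 of the 8. The same share over all genes was not counted, so this number is not a result about the receptors.

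**Figure D3:**
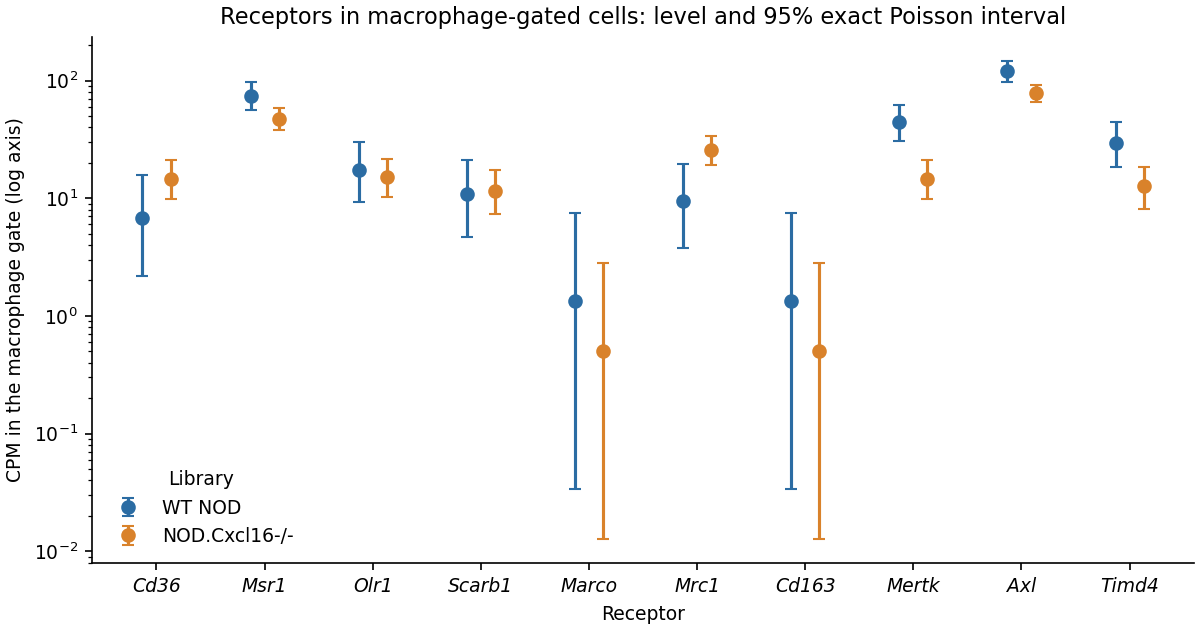
CPM of each receptor in the macrophage gate (log axis) with its exact Poisson interval, 72 WT NOD cells and 172 cells of the library labelled NOD.Cxcl16-/-. The intervals of the libraries are apart for Mertk and Axl and meet at 18.6 CPM for Timd4; those of Marco and Cd163 rest on 1 UMI each.

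Mertk had the lowest log2 ratio, -1.54 (-2.38 to -0.84), at 44.4 and 14.6 CPM. Without the cell with the most Mertk UMIs in each library the ratio was -0.92, and among cells with no T, B or NK marker at all it was 0.34. The shares of cells with a Mertk UMI were 12.5% and 13.4%. Timd4 followed at -1.17 (-2.12 to -0.34), and at -0.63 without its leading cells. Msr1 was at -0.64 (-1.14 to -0.14) and Axl at -0.61 (-1.01 to -0.23), or -0.62 and -0.54 without the leading cells. Mrc1 had the highest ratio, 1.35 (0.30 to 2.83), and 1.44 without the leading cells. With whole Leiden clusters in place of the gate Mrc1 was at 0.05 and with lymphocyte-marked cells kept at 0.25, so the higher Mrc1 level was seen in the gated cells and not in the wider set. Cd36 was at 1.01 (-0.27 to 2.84) from 5 and 29 UMIs, and at -0.07 after thinning. Cxcl16 in the same cells was at 888 CPM (659 UMIs) and 520 CPM (1033 UMIs), a log2 ratio of -0.77 (-0.91 to -0.63).

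The exact intervals of the share of macrophage-gated cells with a UMI overlapped between the libraries for 8 of the 8 receptors. This held both at full depth and after thinning to 2000 UMIs. The same overlap over all genes was not counted, so this number is not a result about the receptors. Thinning left out 12 and 14 shallower cells. The thinned shares were 20% and 12.7% for Axl, 6.67% and 1.90% for Mertk, 3.33% and 5.70% for Mrc1, and 5.00% and 4.43% for Timd4. Overlap of intervals does not show that the shares are the same. The summed levels of marker panels also differed between the libraries in this gate, the gate's own macrophage panel included. The macrophage panel of 8 genes summed to 14150 and 20552 CPM, the classical monocyte panel to 440 and 189 CPM, the pancreatic endocrine panel to 11071 and 12710 CPM, and immunoglobulin genes to 317 and 724 CPM, while the T cell panel was at 33.7 and 25.2 CPM. Their part in the receptor differences was not tested.

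The receptors were also counted together within cells. The median number of receptors detected per macrophage was 2 (WT NOD) and 1, with none detected in 20 of 72 and 48 of 172 cells. At least 3 were detected in 15 (20.8%) and 42 (24.4%). Msr1 with Axl was the commonest of the 5 pairs counted, in 22 of 72 and 30 of 172 cells. Mertk with Axl was seen in 6 and 16 cells, Msr1 with Olr1 in 5 and 4, Mrc1 with Cd36 in 0 and 3, and Mrc1 with Mertk in 0 and 8. Splitting the gate by genes of resident macrophages gave 20 and 58 cells with UMIs of 2 or more of them. The largest UMI totals of that list were those of Selenop (203 and 587), Pf4 (97 and 187) and Cd38 (60 and 110). Lyve1, Vsig4, Clec4f, Cd209f and Cd209g had no UMI in the gate. The split thus rests mainly on a few genes and does not show that these cells are resident. Axl was at 124 and 72.1 CPM in these cells and at 118 and 83.9 CPM in the rest, and the intervals overlap in each library. Mrc1 was at 14.5 and 24.0 CPM in the resident-gene cells and at 6.42 and 27.3 CPM in the rest, and these intervals overlap. The cells with resident genes were deeper (medians 12999.5 and 15912 UMIs against 8300.5 and 8005.5).

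In the DC gates the direction between the libraries differed by receptor and gate. In the cDC1 gate 4 receptors reached 10 CPM and 0 passed 1.5-fold, where 12.2% of 7101 genes did: Cd36 was at -0.17 (-0.65 to 0.30), Olr1 at -0.04, Scarb1 at 0.04 and Timd4 at 0.18 (-0.15 to 0.52). In the cDC2 gate Timd4 was the only receptor at this level, with a log2 ratio of -1.20 (-1.64 to -0.79), where 17.6% of 7167 genes passed 1.5-fold. In the cluster that matched the cDC2 panel best, led by Ifitm1 and Ppp1r14a, Timd4 was at 120 and 77.9 CPM, a log2 ratio of -0.62. In the migratory DC gate Axl was lower, at -1.27 (-2.24 to -0.46), and Timd4 was at 0.51 (0.05 to 0.99), where 20.9% of 6850 genes passed 1.5-fold. Of the 114 Timd4 UMIs there in the library labelled NOD.Cxcl16-/-, 36 were in 1 cell, and without the leading cells the ratio was 0.17. Pancreatic endocrine transcripts were at 7056 and 310 CPM in this gate, and their part was not tested. Plasmacytoid DCs (53 and 43 cells) had 3 receptors at 10 CPM, of which Cd36 (10 and 5 UMIs) and Timd4 (0 and 10 UMIs) passed 1.5-fold, where 33.9% of 7686 genes did. No fold is given for Timd4 there, since its 10 UMIs lie in 3 cells. In B cells Cd36 had a log2 ratio of 0.10, where 2.06% of 7199 genes passed 1.5-fold.

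**Figure D4:**
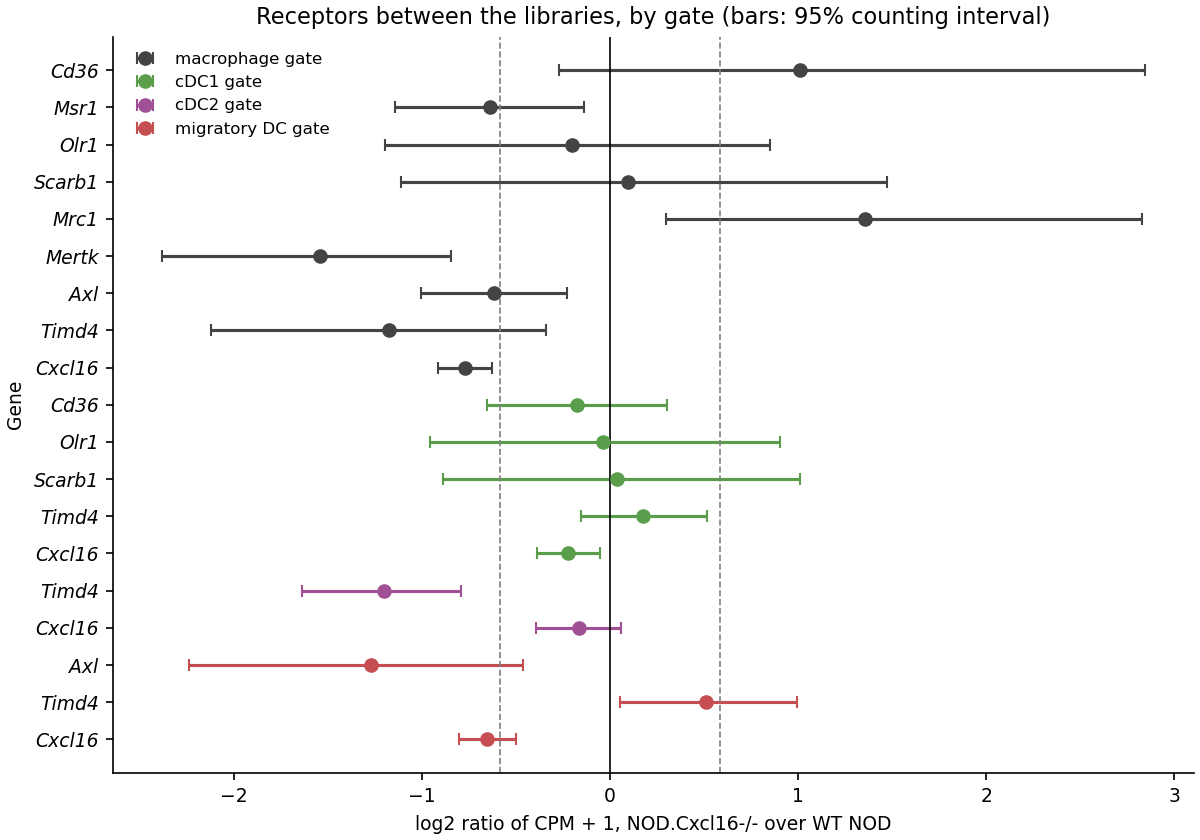
log2 ratio of CPM + 1 between the library labelled NOD.Cxcl16-/- and the WT NOD library, for each receptor of at least 10 CPM and for Cxcl16, by gate; bars are counting intervals, dashed lines mark 1.5-fold and the solid line no difference. The macrophage receptors lie on both sides of 0, from -1.54 (Mertk) to 1.35 (Mrc1), while the 4 receptors of the cDC1 gate lie between -0.17 and 0.18.

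The genes that act beside these receptors were read from 5 lists in the macrophage gate, with the same 10 CPM and 1.5-fold limits and 18.6% of all genes past 1.5-fold. Of 21 other scavenger and lipoprotein receptors counted, 9 reached 10 CPM, of which 2 were lower and 0 higher past 1.5-fold, with a median of -0.21. The lower ones were Fcgr2b, an inhibitory Fc receptor, at 183 and 88.5 CPM (-1.04), and Cxcl16. Clec4n was next at -0.37, and the highest were Cd68 (0.39), Lrp1 (0.35) and Scarb2 (0.19). Of 29 genes of dead-cell recognition, bridging and engulfment, 18 reached 10 CPM, 1 lower and 2 higher past 1.5-fold, with a median of -0.01. Trem2, a lipid-sensing receptor of macrophages, was higher, at 29.6 CPM (22 UMIs) and 128 CPM (255 UMIs), a log2 ratio of 2.08 (1.48 to 2.81). Itgb5, a subunit of an integrin that binds the bridging protein MFG-E8, was at 97.0 and 180 CPM (0.89), and its partner Itgav was at 0.49. Cd300lf was lower, at 43.1 and 24.1 CPM (-0.81), followed by Itgam (-0.45) and Sirpa (-0.33).

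Of 24 genes that handle cholesterol and fatty acids after uptake, 21 reached 10 CPM, with 0 lower and 2 higher past 1.5-fold and a median of -0.02. The higher ones were Ch25h, which makes 25-hydroxycholesterol, at 9.43 and 19.6 CPM (0.98, -0.12 to 2.46), and Acsl1, a fatty acid activating enzyme, at 71.4 and 109 CPM (0.61, 0.17 to 1.07). Npc1 was at 0.49, and the lowest were Nr1h3 (-0.39), Abca1 (-0.30) and Lipa (-0.26), which encode the sterol sensor LXRα, a cholesterol exporter and lysosomal acid lipase. Of 15 resident macrophage genes 3 reached 10 CPM, 0 past 1.5-fold, with a median of -0.47, the lowest of the lists: Cd38 (-0.54), Pf4 (-0.47) and Selenop (0.11). Of 14 interferon-stimulated genes, 14 reached 10 CPM, 3 lower and 0 higher, with a median of -0.12. The lower ones were Irf7 (-2.13), Usp18 (-1.46) and Ifit3 (-1.13), and the highest were Cxcl10 (0.45), Rsad2 (0.26) and Gbp2 (0.18).

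**Figure D5:**
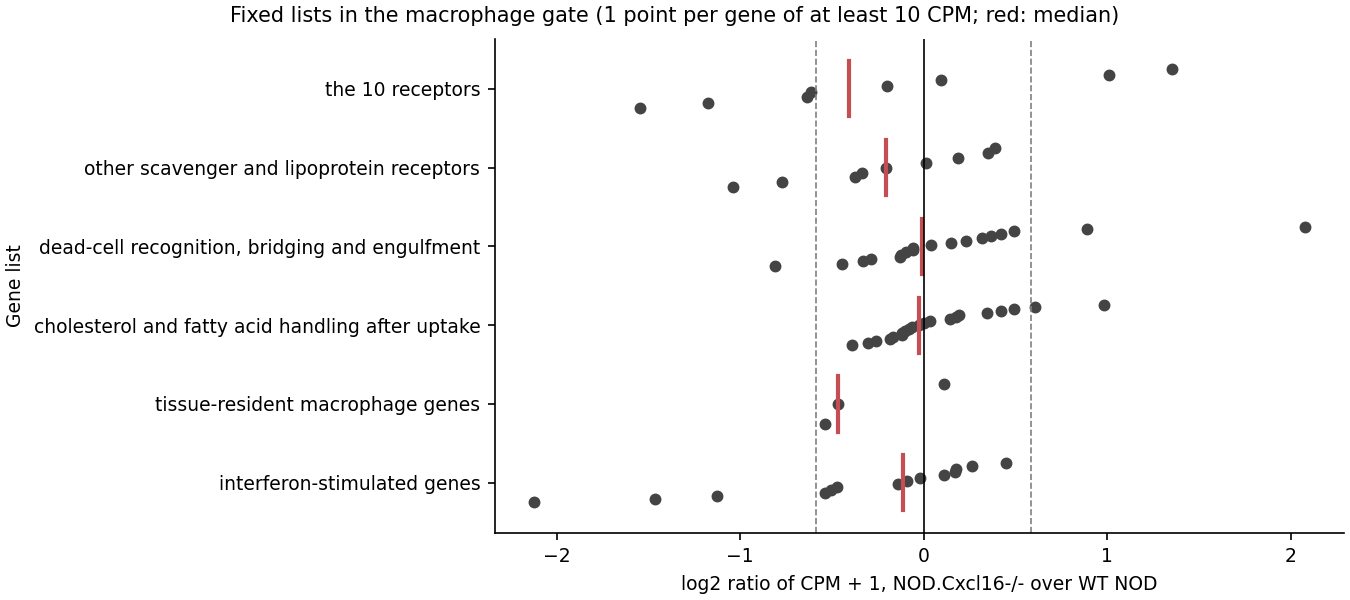
log2 ratio of CPM + 1 between the library labelled NOD.Cxcl16-/- and the WT NOD library in the macrophage gate; each point is 1 gene of at least 10 CPM, the red bar is the list's median and dashed lines mark 1.5-fold. The medians are -0.41 for the 8 of the 10 receptors that reached 10 CPM and -0.21 for the other scavenger receptors, and Trem2 is the isolated point at 2.08.

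The genes whose levels were most like those of each receptor were found over 7 gates in 2 libraries (14 points), among 9253 genes, by Pearson's r of log2(CPM + 1). The gates were those with at least 50 cells in each library: macrophage, cDC1, cDC2, migratory DC, B, T and NK. Lymphocyte gates are thus among the points, and r also reads the contrast of myeloid with lymphoid cells. These points share library, depth and gate, so r is a description. Msr1 was most like C3 (0.98) and Tmem86a (0.97), Olr1 like Akr1a1 (0.98), Cxcl9 (0.98) and Aif1 (0.97), and Axl like Tnf (0.96), Cebpa (0.95) and Mmp14 (0.94). Timd4 was most like Atox1 (0.98), Ccnd1 (0.97) and Mcemp1 (0.97), the last 2 of which are also leading genes of the cluster led by Ifitm1 and Ppp1r14a. Cd36 had looser matches, Mpeg1 (0.86), BC028528 (0.86) and Fuca1 (0.84), and Scarb1 matched Ppt1 (0.92), Lap3 (0.89) and Rab7b (0.89). Mrc1, Mertk, Cd163 and Marco had under 100 UMIs over the gated cells and were not matched. Among the receptors themselves, Axl with Msr1 (0.88) and Timd4 with Olr1 (0.84) had the highest r, and Axl with Cd36 (0.30) the lowest of 15 pairs.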

How the data were processed

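The values are raw UMI counts of each gene in each barcode, as deposited, made by the authors with Cell Ranger 7.0.1 per the file headers; the build mm10 comes from the submitters' processing notes, and the annotation is not given in the sources used here. Barcodes with under 500 genes or over 10% mitochondrial UMIs were left out, as were the highest doublet scores at 0.8% per 1000 barcodes (1537 and 891), so 20039 cells remained. A myeloid cell joined the gate whose panel had the most markers, with at least 3 of 8, no tie, at most 1 marker each of T, B and NK cells and 3 of plasma cells; T, B and NK cells needed 4 and plasma cells 6. UMIs were summed per gate and library as CPM, with exact Poisson and Clopper-Pearson intervals. Ratios are log2 with 1 CPM added, with exact conditional counting intervals. Cells were also clustered (2000 variable genes without the receptors, Leiden resolution 1, 21 clusters). The scripts were tested on simulated data.

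The members and gene lists were chosen with earlier results of these data known. The gate limits were set after marker minimums of 2, 3 and 4 and several lymphoid limits had been looked at, with receptor values in view, and the clustering was run 3 times. Named genes are the 10 receptors, Cxcl16, the 3 genes most like each receptor with at least 100 UMIs, and the 3 highest and lowest ratios of each list; 1 gene named by this rule is not reported here. Genes that led a cell cluster or a gate were named to identify it. Analyses used Python 3.11.15, scipy 1.17.1 and scanpy 1.11.5.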

Additional observations from a re-analysis of the deposited data

Results flagged for a closer look

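Timd4 was flagged because its difference between the libraries ran in opposite directions in gates of at least 50 cells, each with a counting interval that leaves out 0. It was lower in the library labelled NOD.Cxcl16-/- in the macrophage gate (log2 ratio -1.17) and in the cDC2 gate (-1.20), and higher in the migratory DC gate (0.51). The difference between the gates was not tested, since each group has 1 library. In the migratory DC gate 1 cell held 36 of the 114 UMIs, and the ratio was 0.17 without the leading cells of both libraries and -0.26 with a minimum of 4 markers.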

How the results depend on the processing

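The number of receptors past 1.5-fold in the macrophage gate was 6 of 8 and stayed between 4 and 8 under 15 alternatives, 3 of them chosen after seeing the data (leaving out the cell with the most UMIs, cells of at least 5000 UMIs, no lymphoid marker at all). It was 4 of 6 without the leading cells and 8 of 10 with no filter on low values. Of the log2 ratios between the libraries that were past 1.5-fold, 2 changed sign: Cd36 in the macrophage gate to -0.071 when cells were thinned to 2000 UMIs, and Mertk to 0.34 when no lymphoid marker was allowed. Smaller ratios changed sign too, among them Timd4 in the migratory DC gate (to -0.26 with a minimum of 4 markers and -0.24 with no lymphoid exclusion) and in the cDC1 gate (to -0.38 with no lymphoid exclusion), and Cd36 in the cDC1 gate (to 0.59 with no lymphoid marker). The macrophage ratios ranged over the alternatives from -1.03 to -0.58 for Msr1, -0.87 to -0.48 for Axl, -1.29 to -0.33 for Timd4, 0.05 to 1.53 for Mrc1, -1.31 to 0.26 for Olr1 and -4.70 to 0.48 for Scarb1, the lowest Scarb1 value coming from a thinned library with no Scarb1 UMI. Timd4 in the cDC2 gate kept its direction, from -1.65 to -0.62, the last value coming from the wider cluster. Axl in the migratory DC gate also kept its direction, from -3.72 to -1.01. In all, 236 ratios stayed within their counting interval and 25 moved beyond it, as did 95 of the CPM values (493 stayed) and 22 of the ratios between gates (202 stayed); the cause was not tested. No paired analysis was possible because each group has 1 library. Depth limits Marco, Cd163 and the monocyte gate, whose values rest on a few UMIs or cells.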
